A study of Homo sapiens with 9 samples.

Results

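Replication-dependent histone genes were followed across 7 oligo(dT)-primed libraries of human cell lines. Members were taken by gene symbol alone, after each transcript accession in the deposited count tables was matched to its current RefSeq symbol: the linker histone genes H1-1 to H1-6 and all H2AC, H2BC, H3C and H4C genes, with 1 transcript entry a gene, the one with most reads. This gave 70 of 26625 genes: 6 H1, 17 H2A, 19 H2B (among them the pseudogene H2BC20P), 13 H3 and 15 H4 genes. By the hg19 positions in the files, 55 lie on chromosome 6, 14 on chromosome 1 and 1 on chromosome 12. The span of 67 of the 70 entries equals the mRNA size given, so these have no intron.

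Replication-dependent histone genes supply the H2A, H2B, H3 and H4 proteins of the nucleosome core, and the linker histone H1, when DNA is copied. Their mRNAs are mostly without introns and, unlike nearly all other mRNAs of animal cells, mostly end in a conserved stem-loop in place of a poly(A) tail; the stem-loop is bound by SLBP and the end is made by cleavage guided by the U7 small nuclear RNP. Some of these genes also give longer polyadenylated transcripts from a downstream signal, and a primer made of T can in principle also anneal to a run of A inside an RNA.

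The study primed total RNA with adaptor-flanked oligo(dT) primers in a ligation-based protocol, CLT-seq. HEK293T, a human embryonic kidney line that carries the SV40 large T antigen, was primed with T12, T18 and T30 (unanchored runs of 12, 18 and 30 T) and with T18V, T18VN and T18VNN, in which 18 T are followed by 1, 2 or 3 anchor bases (V is any base but T, and N is any base). A549, a human lung carcinoma line, was primed with T12. Both lines are labelled wild type, were grown untreated with 10% serum, and have 1 library with gene counts for each primer, so that a mean ± SD below is over 3 different primers and not over cultures. The libraries held 1498191 to 5200798 reads on genes (A549 the fewest, HEK293T T18 the most), and CPM below takes the reads on genes as the library size.

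A pair of HEK293T libraries stood apart. In T18, ZNF557 alone took 7.20% of the gene reads, against 1.37 to 2.15% for the top gene of the other HEK293T libraries. In T18VNN, 33.7% of the gene body coverage lay in the first 20 of 100 percentiles, against 2.61 to 3.16% in T12, T18, T30 and T18V (coverage of T18VN was not used here). KRT7, AKR1B10 and TGFBI were found in A549 (2052 to 8046 reads) and at 0 reads in all 6 HEK293T libraries, and the neurofilament gene NEFM had 2007 to 7809 reads in HEK293T and 0 in A549. Of the other markers listed for HEK293T, NEFL and LIN28B were also at 0 in A549, while GATA3, PAX2 and WT1 had 10, 6 and 19 reads there, and WT1 was at 12.7 CPM in A549 against 11.9 in HEK293T T12. Of the markers listed for A549, SFTPB, NAPSA and EPCAM were at 0 reads in A549. EPCAM had 2 reads in HEK293T T18VN and 5 in T18VNN.

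The sequences below are stem-loops and ends of reference transcripts, shown without a test of where an oligo(dT) primer annealed. They were read from the GENCODE release 29 (GRCh38) transcripts matched to the members, 5′ to 3′ in DNA letters. The first pair are stem-loops of H2BC5 (short transcript) and H4C8, with the stem-loop pattern in capitals; 39 and 18 bases follow them in the reference.

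H2BC5 short transcript: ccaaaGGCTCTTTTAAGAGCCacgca

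H4C8: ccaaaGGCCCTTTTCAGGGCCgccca

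H2BC21 holds such a stem-loop as well, but its reference transcript runs on for 1729 bases; its end and that of the long H2BC5 transcript hold the polyadenylation signal AATAAA, in capitals.

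H2BC21 end: gttattAATAAAgttaccaattaatttaaa

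H2BC5 long transcript end: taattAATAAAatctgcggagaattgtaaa

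H4C3, the member with most reads, has no such stem-loop in its reference transcript and no AATAAA in the last 50 bases. That transcript ends 27 bases before the end of the RefSeq gene. Its last 30 bases, and those of H1-2, which had 1 read in HEK293T, are given with every A in capitals.

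H4C3 end: tgAgAActtcAAAAAAcAAAAAcAAAAAAA

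H1-2 end: cctAAgAAggcggcgcccAAgAAgAAAtAg

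The stem-loop was searched as a 16-base pattern (the capitals in the lines above, with the variable stem and loop bases left free), and the polyadenylation signal as AATAAA, both on the transcript strand only. By their fixed letters the patterns cannot overlap. Reference transcripts were matched for all 70 members. Of these, 35 end at the stop codon, as H1-2 and H2BC12 do, so the region after it could not be searched. Of the 35 that go past it, 30 held the stem-loop pattern. It lay within the last 100 bases in 8 members, and in 2 of 24632 other genes (0.00812%). AATAAA lay within the last 50 bases in 14 members and in 51.3% of the other genes. A match is a description of letters, not a site in use.

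H4C3 stood out among the members for A next to its coding end: its A-richest 18 bases, AAAAAAcAAAAAcAAAAA, begin 31 bases after the stop codon and hold 16 A. In 8.94% of the other genes some 18 bases hold as many. The other 14 H4 genes reached 7 to 14 A in 18 bases. Its last 30 bases hold 21 A, a number reached in 1.16% of the other genes, and the next H4 gene has 13. These counts compare unlike regions. For the 35 members whose reference ends at the stop codon, among them several H4 genes, the last 30 bases are coding sequence. A after their stop codon could not be counted. H2BC8 is the only other member with at least 16 A in 18 bases; its reference transcript ends in a run of 30 A, and it had 0 reads in all 7 libraries. That reference is 1534 bases long, whereas the deposited entry for H2BC8 covers 445, so reads at its far end would not be counted.

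**Figure D1:**
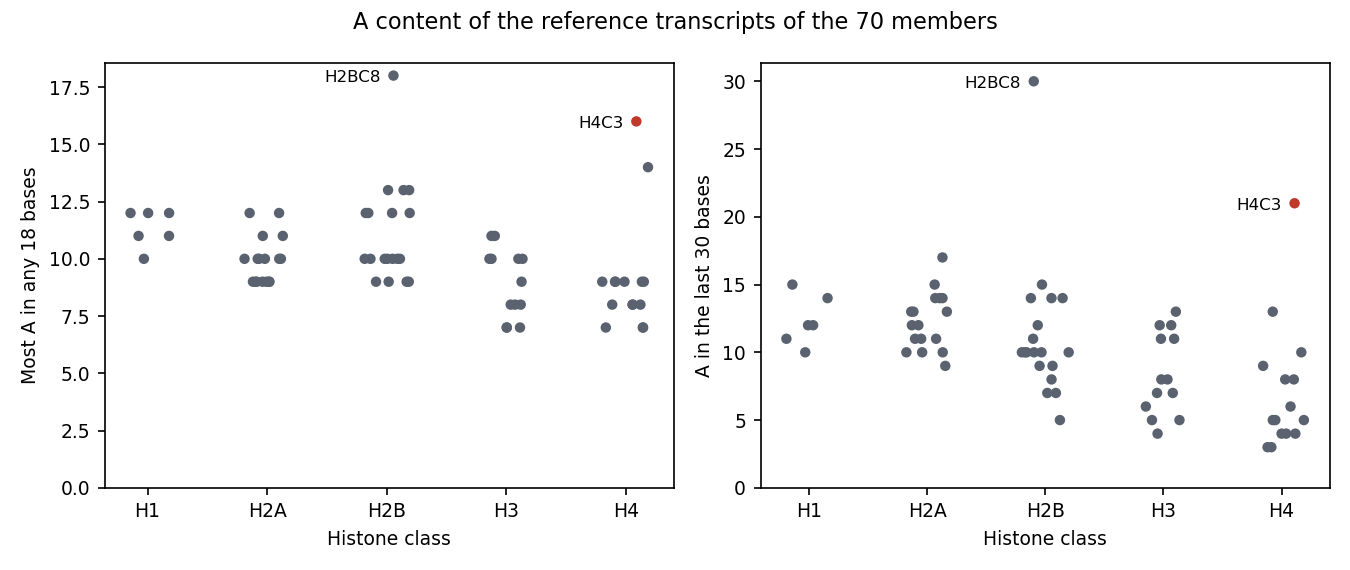
Most A in any 18 consecutive bases (left) and A in the last 30 bases (right) of the reference transcript, with 1 point for each of the 70 members, by histone class (points are spread sideways for sight). H4C3 (red) has 16 A in 18 bases and 21 A in the last 30, and only H2BC8 lies above it in either panel. For the 35 members whose reference ends at the stop codon, the last 30 bases are coding sequence.

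Few histone genes had counted reads. No read fell on 45 of the 70 members in any library (0 reads in every library held for 35.6% of all genes), and 25 had a read somewhere. At least 3 reads, taken here as the floor, were reached by 3 members in T12, 6 in T18, 3 in T30, 4 in T18V, 8 in T18VN, 11 in T18VNN and 6 in A549. These are 4.29 to 15.7% of the members, against 43.1 to 49.3% of all genes. With each library scaled to the depth of A549, the expected numbers were 2.70, 3.46, 2.80, 3.72, 6.99 and 10.3 for the HEK293T libraries in the same order, so the order of T18VN and T18VNN above the other HEK293T libraries was kept. A count of 0 in a library allows up to 3 reads, which is 0.577 CPM at the depth of T18 and 2.00 CPM at that of A549. Some counted entries are far shorter than the reference transcript, as for H2AC11 (498 against 2250 bases) and H3C8 (467 against 2411). For others, such as H2BC21 (2223 against 2194), they are not. Reads past the end of a short entry would not be counted, so 0 reads there does not show that the RNA was absent.

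**Figure D2:**
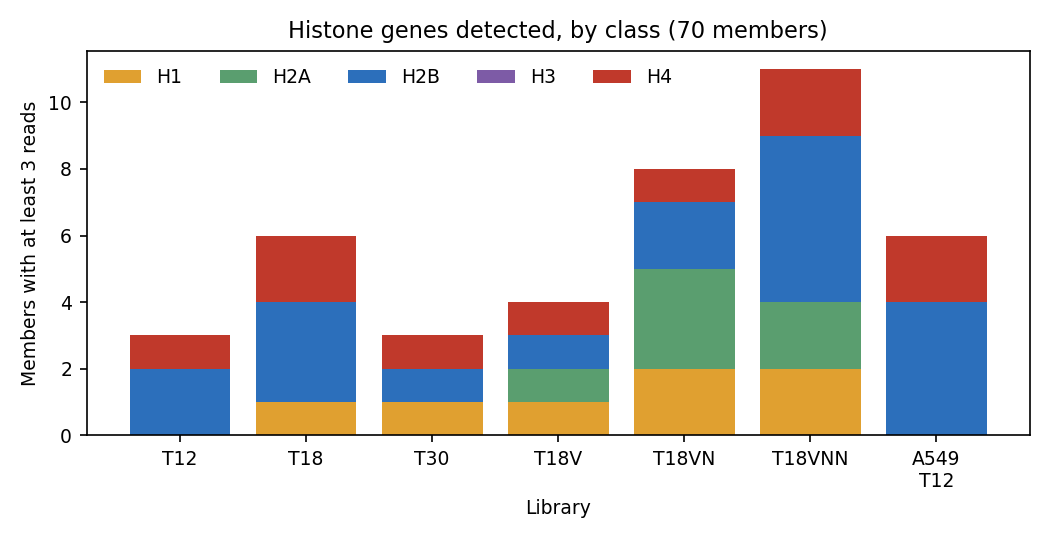
Number of the 70 histone genes with at least 3 reads (vertical axis) in each library (horizontal axis), stacked by class. T18VN and T18VNN reach 8 and 11 genes, the other HEK293T libraries 3 to 6, and no H3 gene appears in any library.

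Over all members, histone reads were 295 in T12, 5544 in T18, 646 in T30, 1312 in T18V, 2422 in T18VN, 1964 in T18VNN and 306 in A549. They made up 0.00903%, 0.107%, 0.0292%, 0.0467%, 0.0541%, 0.0546% and 0.0204% of the gene reads. For the T12 primer the 95% Wilson interval was 0.00806 to 0.0101% in HEK293T and 0.0183 to 0.0228% in A549, which do not overlap, though the A549 value lay inside the range of the HEK293T libraries. The unanchored libraries spread over the whole range while the 3 anchored ones lay close together: 0.0483% ± 0.0515 (SD, n = 3) without and 0.0518% ± 0.00443 (SD, n = 3) with anchor bases. The difference of 0.00352 percentage points was far inside the spread, and it turned to -0.0161 without T12 and to -0.00604 without T30, and was 0.0327 without T18. Scaled to the library total in place of the gene reads, histone reads were at 88.8 ± 111 RPM (SD, n = 3) without and 159 ± 13.6 RPM (SD, n = 3) with anchor bases, a difference of 0.00707 percentage points that also lay inside the spread of the unanchored libraries.

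H4C3 and H2BC12 held 92.1% of all 12489 histone reads and were the only members at the floor or above in all 7 libraries. On the other members fell 12 reads in T12, 46 in T18, 7 in T30, 38 in T18V, 206 in T18VN, 581 in T18VNN and 91 in A549. In CPM this was 5.23 ± 3.14 (SD, n = 3) for unanchored and 73.7 ± 77.8 (SD, n = 3) for anchored primers. Each anchored library (13.5, 45.97 and 162 CPM) lay above each unanchored one (3.16 to 8.84 CPM), with T18VNN far above the rest. For single genes this order held in 16.8% of those tested. In T18V, 29 of the 38 reads fell on H1-3, and without H1-3 T18V would not lie above T12 or T18. A549 was at 60.7 CPM. The difference between the anchored and unanchored means was 0.00685 percentage points of the gene reads, and 0.00245 without T18VNN. This sum was looked at after the levels of H4C3 and H2BC12 were seen, and has no test.

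**Figure D3:**
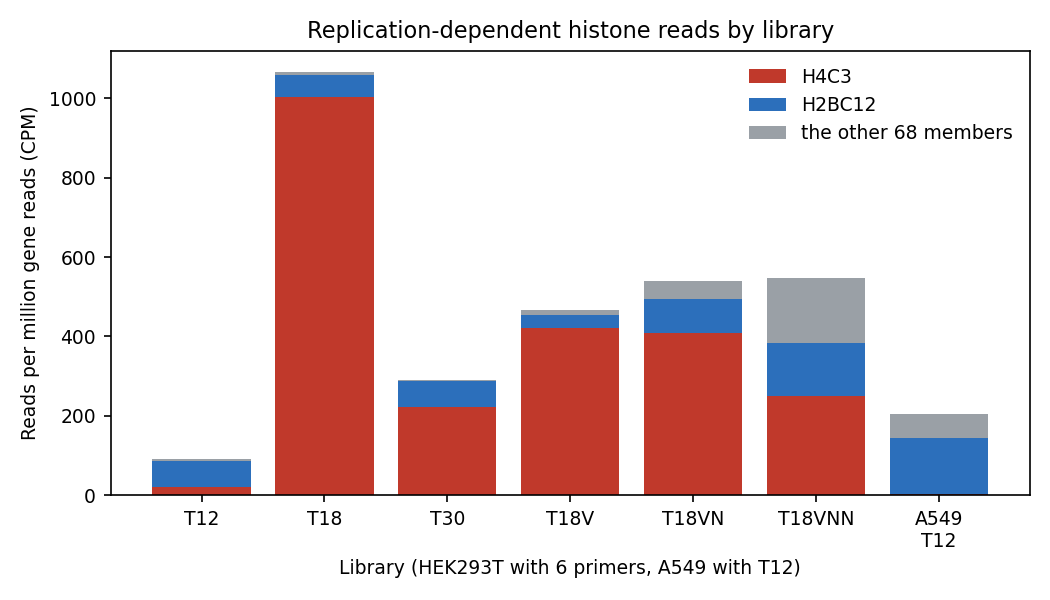
CPM (vertical axis) of H4C3, H2BC12 and the other 68 members, stacked, in each library. H4C3 fills 94.1% of the T18 bar, H2BC12 leads in HEK293T T12 and A549, and the remaining members form a visible share in T18VN, T18VNN and A549.

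The comparison of anchored with unanchored primers asks whether the RNAs primed differ between these groups of primers. It was tested with edgeR's quasi-likelihood test over 10887 genes (T18V, T18VN and T18VNN against T12, T18 and T30), in which 147 genes, 1.35% of those tested, had a Benjamini-Hochberg adjusted p under 0.05 (85 or 0.781% higher, 62 lower with anchors). Only 3 members, H1-3, H2BC12 and H4C3, passed the filter on low counts, and 0 of them passed the test. At an unadjusted p under 0.05 there was 1 member, H1-3, among 1694 genes. DESeq2 called 1 of 3 members, also H1-3, and 603 of 7789 genes. The other 67 members had too few reads to be tested. The anchored primers all have the same number of T, and of the unanchored ones only T18 shares it. The test therefore cannot separate anchor bases from the length of the T run. Its p-values take different primers as replicates, in place of repeated cultures.

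Among the linker histone genes, H1-3 (chromosome 6, 26234440-26235216, minus strand, hg19) carried most reads. It had 0 reads in T12, 26 in T18, 5 in T30, 29 in T18V, 86 in T18VN, 220 in T18VNN and 0 in A549. In CPM these are 0, 5.00 and 2.26 for the unanchored and 10.3, 19.2 and 61.2 for the anchored primers. All 3 anchored libraries lay above all 3 unanchored ones, as they did for 16.8% of the genes tested, and T18VNN lay apart from the other libraries. The log2 fold change was 3.37 ± 0.97 (SE) with an adjusted p of 0.117 by edgeR's quasi-likelihood test, so the difference did not pass. DESeq2 gave an adjusted p of 0.0041 for H1-3 and a log2 fold change of 3.38. Without T18VNN the edgeR log2 fold change was 2.33 (adjusted p 0.497).

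H1-4, another main linker histone gene (chromosome 6, 26156559-26157343, plus strand), was found with anchored primers only. It had 1 read in T18V, 15 in T18VN and 75 in T18VNN, and 0 in the unanchored libraries and in A549. T18VNN was 6.23 times T18VN in CPM (95% interval 3.55 to 11.7, counting error only). With no filter on low counts, edgeR's quasi-likelihood test gave H1-4 an adjusted p of 0.00825. With the filter it was not tested on all 6 libraries, and in the 4 filtered fits that did test it, each without 1 of T12, T18, T30 and T18V, the adjusted p was 0.169, 0.229, 0.203 and 0.13 by the same test; DESeq2 gave none. H1-2 had 1 read in T18VNN and 1 in A549, and H1-1, H1-5 and H1-6 had 0 reads in every library. The reference transcript of H1-3 ends at its stop codon, and its A-richest 18 bases, AtgtAgAAAAAAAcAAcA, lie in its coding sequence.

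The H2A genes, whose protein pairs with H2B in the nucleosome, gave 1 read in T12, 1 in T18, 1 in T30, 6 in T18V, 46 in T18VN, 20 in T18VNN and 0 in A549. H2AC20 (chromosome 1, 149858525-149858961, plus strand) had 30 reads in T18VN, 12 in T18VNN and 0 elsewhere. Between T18VN and T18V it was at least 6.27-fold higher, taking 3 reads as the floor of the T18V library. H2AC19 (chromosome 1, 149822628-149823161, plus strand) had 8 reads in T18VN only, and its near-identical neighbour H2AC18 had 1 in T12 and 5 in T18VNN. The last 30 bases of these 2 genes have the same letters in the reference, so a read may belong to either. H2AC12 (chromosome 6, 27114861-27115341, plus strand) had 1 read in T18, 8 in T18VN and 2 in T18VNN. H2AC25 (chromosome 1, 228645065-228645560, minus strand) had 1 read in T30 and 6 in T18V. The H2A genes differed from one another in which library showed them, at counts that are mostly under 10.

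**Figure D4:**
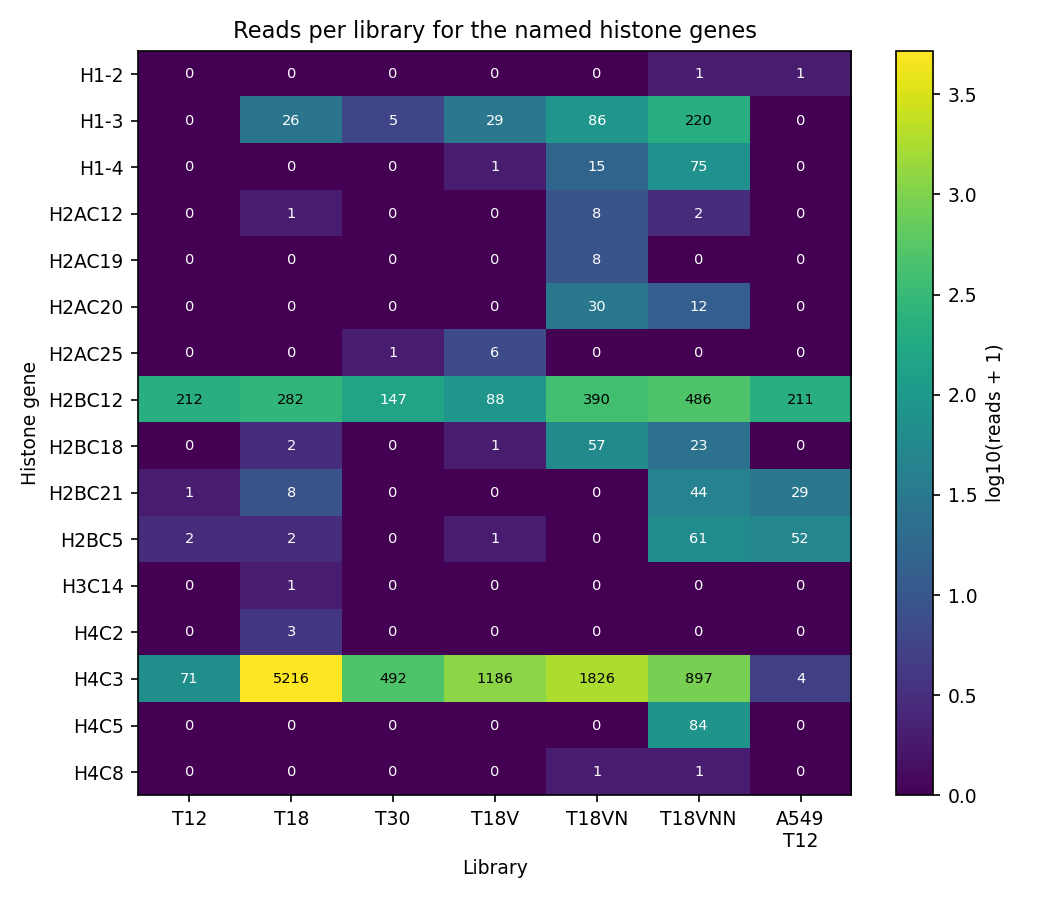
Reads of the named histone genes (vertical axis) in the 7 libraries (horizontal axis), printed in each cell and coloured by log10(reads + 1). H4C3 and H2BC12 are filled across all libraries, H1-3 across all but HEK293T T12 and A549, and the other genes in a few libraries.

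H2BC12, an H2B gene (chromosome 6, 27106072-27114637, minus strand), had at least 88 reads in every library. It had 212 reads in T12, 282 in T18, 147 in T30, 88 in T18V, 390 in T18VN, 486 in T18VNN and 211 in A549. In CPM the unanchored libraries were at 61.8 ± 6.62 (SD, n = 3) and the anchored at 84.5 ± 51.96 (SD, n = 3). The groups overlapped: T18V was lowest at 31.3 CPM and T18VNN highest at 135 CPM. The log2 fold change was 0.28 ± 0.46 (SE) with an adjusted p of 0.834 by edgeR's quasi-likelihood test, and it turned to -0.26 without T18VNN. Over the unanchored lengths T30 was 1.02 times T12 (95% interval 0.822 to 1.27) and T18 was 0.835 times T12 (0.696 to 1.00), both counting error only.

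The files carry 2 entries for H2BC12, and nearly all its reads belong to the long one. The long entry is spliced, with 839 bases over a span that reaches far downstream, and the short entry is the 498-base gene body (chromosome 6, 27114140-27114637). Over the 6 HEK293T libraries the short entry held 7 reads and the long one 1605, and in A549 the numbers were 0 and 211. The long span also overlaps H4C9, which had 0 reads. No reference sequence of the long end was used here.

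H2BC5 (chromosome 6, 26158349-26171577 for the long entry, plus strand) also has a short entry of 487 bases, which ends after the stem-loop printed above, and a long one of 814 bases that ends at the AATAAA printed above. It had 2 reads in T12, 2 in T18, 0 in T30, 1 in T18V, 0 in T18VN, 61 in T18VNN and 52 in A549. With T18VNN, 57 reads were counted on the short and 61 on the long entry; since the entries start at the same base, a read near the start counts for both. In A549, 0 reads were counted on the short entry and 52 on the long one. The library with most H2BC5 reads in HEK293T and the A549 library thus placed them in different parts of the gene. That T18VNN is also the library with high 5′ coverage is given above, and its part in this was not tested.

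H2BC18 (chromosome 1, 149783434-149783928, minus strand) had 0 reads in T12, 2 in T18, 0 in T30, 1 in T18V, 57 in T18VN, 23 in T18VNN and 0 in A549. Its long entry of 999 bases held 26 reads in T18VN and 23 in T18VNN. T18VN thus had more reads on the short entry than on the long one, while T18VNN had the same number on both.

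**Figure D5:**
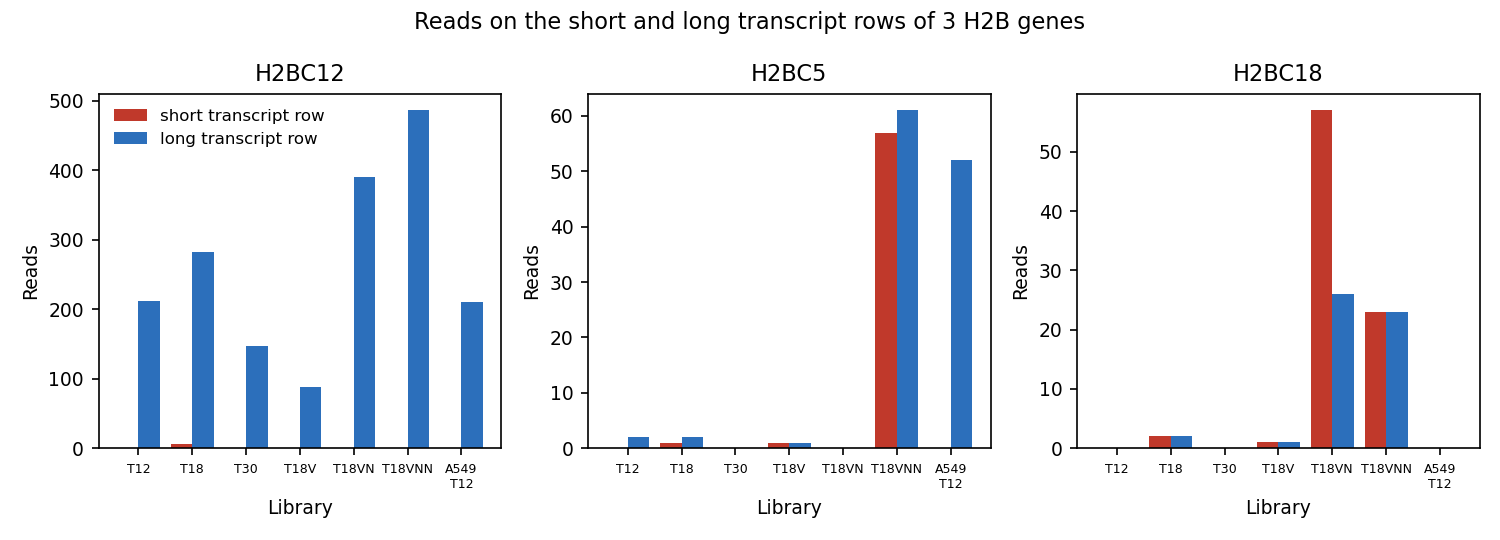
Reads (vertical axis, a scale for each gene) on the short (red) and long (blue) transcript entries of H2BC12, H2BC5 and H2BC18 in each library. H2BC12 reads are nearly all on the long entry, and for H2BC5 the short entry has 57 reads in T18VNN and 0 in A549.

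H2BC21 (chromosome 1, 149856010-149858232, minus strand), whose 2223-base entry is the only long single-exon one among the named H2B genes, had 1 read in T12, 8 in T18, 44 in T18VNN, 29 in A549 and 0 in the other libraries. H2BC17 had 50 reads in T18VNN and 0 in all other libraries; it was chosen after its values were seen. Compared with T18VN, T18VNN was at least 25.3-fold higher for H2BC5, at least 20.8-fold for H2BC17 and at least 18.3-fold for H2BC21, all against a floor of 3 reads in the T18VN library. The pseudogene H2BC20P had 7 reads in T12, 3 in T18 and 1 in T18VN. No read fell on 10 of the 19 H2B members.

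H3, the class with 13 members, had almost no counted reads: 1 read in all 7 libraries together, on H3C14 (chromosome 1, 149812259-149812765, minus strand) in T18. At this depth the other libraries allow up to 3 reads each. The H3C14 entry has 507 bases and its reference transcript 1656, so reads further downstream would not be counted. The last 30 bases of H3C14 and H3C15 are the same in the reference, so that read may belong to either.

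H4 reads lay mostly on H4C3. H4C3 (chromosome 6, 26104176-26104565, plus strand) had 71 reads in T12, 5216 in T18, 492 in T30, 1186 in T18V, 1826 in T18VN, 897 in T18VNN and 4 in A549. In CPM these are 21.7, 1003, 222, 422, 408, 249 and 2.67. The T18 library was highest, T12 lowest among the HEK293T libraries, and A549 below them all. The unanchored mean was 416 ± 518 (SD, n = 3) and the anchored 360 ± 95.7 (SD, n = 3), so the anchored values lay within the range of the unanchored ones. The log2 fold change was -0.39 ± 0.86 (SE) with an adjusted p of 0.882 by edgeR's quasi-likelihood test. It was 1.35 without T18 and 0.55 with the library total as the library size (where the median of all genes moved to 1.08), so its sign was not settled.

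Along the lengths of the unanchored primers, H4C3 in T18 was 46.1 times T12 (95% interval 36.5 to 59.2) and 4.52 times T30 (4.12 to 4.96), and in T30 it was 10.2 times T12 (7.95 to 13.3), by CPM and with counting error only. Of the genes compared, 16.2% were at least 2-fold higher in T18 than in T12 and 13% lower; of the 3 members with 20 reads in either library, 2 were higher, H4C3 and H1-3. H1-3 had 0 reads in T12 and was compared only through its 26 reads in T18, so it had to be higher. At least 2-fold higher in T30 than in T12 were 14.9% of genes and 1 of 2 members, H4C3; 22.1% of genes and 0 members were lower. At least 2-fold higher in T18 than in T30 were 18.3% of genes and 1 of 3 members, H4C3; 9.44% of genes and 0 members were lower. These ratios compare single libraries, and the T18 library is the one in which ZNF557 took 7.20% of the reads, whose part in the H4C3 level was not tested.

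Along the anchor series, H4C3 (422, 408 and 249 CPM) was lower than in T18, but above T12 (21.7 CPM) and T30 (222 CPM). Among the HEK293T libraries, some other members reached 20 reads only in T18VN or T18VNN. T18V was 0.421 times T18 for H4C3 (95% interval 0.395 to 0.448), which makes it the 1 member of 3 at least 2-fold lower (16.3% of genes were; 16.1% of genes and 0 members were at least 2-fold higher on the log2(CPM + 1) scale), while H1-3 was 2.06 times as high (1.17 to 3.65) on CPM. From T18V to T18VN, H4C3 was level at 0.966 times (0.897 to 1.04), and H2AC20, H2BC12 and H2BC18 were at least 2-fold higher, 3 of 5 members, where 19.6% of genes were; 0 members and 8.95% of genes were lower. H2AC20 and H2BC18 reached 20 reads only in T18VN, so their direction was fixed by that minimum. H2BC12 was 2.78 times as high there (2.201 to 3.54). From T18VN to T18VNN, 6 of 10 members were at least 2-fold higher, namely H1-3, H1-4, H2BC17, H2BC21, H2BC5 and H4C5, against 10.4% of genes, and 0 lower, against 13.2%. Because a member needed 20 reads in either library to be compared, members that reached this only in T18VNN had to be higher there. H4C3 moved the other way, to 0.612 times its T18VN level (0.564 to 0.663). Between the ends of the anchor series, T18VNN against T18V, 8 of 9 members were at least 2-fold higher (16.4% of genes) and 0 lower (9.57% of genes), most of them compared only through T18VNN, so nothing is read from this count either.

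H4C5 (chromosome 6, 26204873-26205249, plus strand) had 84 reads in T18VNN and 0 in the other 6 libraries, at least 34.9-fold higher than T18VN against the floor of 3 reads. Its A-richest 18 bases, AAAcgcAAgAcAgtgAcA, hold 9 A and are in the coding sequence. H4C2 (chromosome 6, 26027124-26027480, minus strand) had 3 reads in T18, and H4C8 (chromosome 6, 26285354-26285727, minus strand) 1 in T18VN and 1 in T18VNN. H4C12 had 3 reads in A549 and H4C15 had 1 in T18VNN.

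Per length, the order of the leading pair depended on the primer. H4C3 was at 2572 CPM per kb in T18 and H2BC12 at 64.6; in T12 they were at 55.7 and 77.4, and in A549 at 6.85 and 168. H4C3 led in 5 of the 6 HEK293T libraries and H2BC12 in T12, in both cell lines. The same gene led in each library in CPM without division by length.

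A549 was compared with HEK293T on the T12 primer, with 1 library each and therefore no test. In RNA from a whole culture, fewer cells that hold an mRNA and less of it in each cell cannot be told apart. Of the 4 members that reached 20 reads in either library, 3 were at least 2-fold higher in A549 (31% of 10145 genes were) and 1 lower (29.2% of genes). H2BC5 and H2BC21 reached 20 reads only in A549, so they had to be higher there, and nothing is read from this count. Higher were H2BC12, at 141 CPM against 64.9 (2.17-fold, 95% interval 1.78 to 2.64), H2BC5, at 34.7 against 0.612 (56.7-fold, 14.9 to 480), and H2BC21, at 19.4 against 0.306 (63.2-fold, 10.5 to 2582). The wide intervals of the last pair come from 2 reads and 1 read in HEK293T. H4C3 was lower, at 2.67 CPM against 21.7 (8.14-fold, 3.04 to 30.7). PCR copies cannot be told from separate molecules here, as no molecular tags are given, so all intervals cover counting error only.

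In CPM, the A549 values also lay outside the range of all 6 HEK293T libraries. H2BC12 lay a little above the highest (141 against 135 CPM, T18VNN), H2BC5 above 16.96 CPM, H2BC21 above 12.2 CPM and H4C3 below 21.7 CPM. Reads on genes were 13.5% of the library total in A549 and 27.7% in T18VNN. On the library total, H2BC12, H2BC5 and H2BC21 in A549 did not lie above T18VNN. With TMM scaling of the 2 libraries, or the library total as the denominator, H2BC12 was no longer 2-fold higher, and 2 members were. H2BC15 had 6 reads in A549 and 1 in T30, and H1-3, H1-4, H2AC20, H2BC18 and H4C5 had 0 in A549.

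Histone genes listed as polyadenylated and independent of replication, H2AX among them, were set beside the members. Whether each of these genes gives only mRNA with a poly(A) tail was not examined. In HEK293T T12 all 12 reached the floor of 3 reads. Their summed CPM was 43.9 times that of the members in T12, 2.59 in T18, 9.92 in T30 and 5.96 in T18V. It was 5.25 times in T18VN, 6.95 in T18VNN and 8.20 in A549. Per length, summed CPM per kb over these genes was 12.5 times that of the members in T12, 0.571 times in T18, 2.42 in T30, 1.67 in T18V, 1.41 in T18VN, 2.03 in T18VNN and 3.78 in A549. The members thus led in T18 only after division by length, where H4C3 alone held 2572 of their 2648 CPM per kb. In T12, T18, T30 and T18V, 59.2 to 64.7% of the gene body coverage lay in the last 20 percentiles. Such reads need not scale with transcript length, so values per length may favour short entries. Of the 10 tested for anchored against unanchored primers by edgeR, 0 passed, and 5 had an unadjusted p under 0.05 (1694 of all 10887 genes did). DESeq2 called 1 higher and 1, H1-10, lower, of 9 tested (603 of all 7789 genes were called). The median log2 fold change by edgeR was 0.31, against -0.00175 over all genes tested. H3-3B, which encodes the replacement histone H3.3, was at 1975 ± 904 CPM (SD, n = 3) without and 1156 ± 202 (SD, n = 3) with anchors (log2 fold change -0.93 ± 0.33, SE, adjusted p 0.19 by edgeR's quasi-likelihood test). H3-3A, the other H3.3 gene, was at 321 ± 133 and 566 ± 59.8 CPM (0.64 ± 0.36, adjusted p 0.427, same test). In A549 1 of 9 was at least 2-fold higher and 4 were lower, where 31% and 29.2% of all genes were.

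Factors that make, bind and degrade histone mRNA did not pass the same test. Over all genes, 1694 of 10887 had an unadjusted p under 0.05 by edgeR, and DESeq2 called 603 of 7789. Of 18 genes for 3′ processing and stem-loop binding, all tested, 0 passed (1 at an unadjusted p under 0.05, 0 by DESeq2, median log2 fold change 0.01). The stem-loop binding protein gene SLBP was at 9.12 ± 2.39 CPM (SD, n = 3) without and 10.2 ± 4.50 (SD, n = 3) with anchors. SRRT, which links the cap-binding complex to RNA processing, was at 876 ± 83.5 and 1002 ± 211 CPM, and SNRPB, a core protein of spliceosomal and U7 particles, at 659 ± 73.5 and 472 ± 168 CPM. Of 15 genes for histone mRNA decay and translation 0 passed (3 at an unadjusted p under 0.05, and UPF1, lower, by DESeq2; median 0.46); MIF4GD, a partner of SLBP in translation, was at 91.7 ± 12.8 and 84.2 ± 2.12 CPM, and UPF1, a helicase of mRNA decay, was at 694 ± 137 and 425 ± 53.1 CPM (log2 fold change -0.88 ± 0.29, adjusted p 0.161 by edgeR's quasi-likelihood test). Of 18 S-phase and histone chaperone genes tested 0 passed (5 at an unadjusted p under 0.05, median 0.12), while DESeq2 called PCNA higher and MCM2 and E2F1 lower. PCNA was at 8.36 ± 1.69 CPM (SD, n = 3) without and 37.99 ± 7.88 (SD, n = 3) with anchors (log2 fold change 2.00 ± 0.44, SE, adjusted p 0.0509 by edgeR's quasi-likelihood test).

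In A549 against HEK293T on the T12 primer, the S-phase and chaperone genes were mostly at lower levels, as single-library values. Of the 17 with enough reads 14 were at least 2-fold lower and 1 higher, and the median log2 ratio was -2.50, against 0.02 over all genes. Among the lower ones, MCM5, MCM6, RRM2, CHAF1A, CHAF1B and ASF1B reached 20 reads only in HEK293T. The minimum thus let them in through the library where they are high. The other genes counted as lower had at least 20 reads in both libraries. MCM2, a subunit of the replicative helicase, was at 68.7 CPM in A549 and 3311 in HEK293T, and CDK2, the kinase of S-phase entry, at 106 and 450 CPM. PCNA, the sliding clamp of DNA polymerases, was at 33.4 CPM in A549 and 6.43 in HEK293T. Over all genes 31% were higher and 29.2% lower. Of the 15 processing genes with enough reads 0 were higher and 5 lower, the latter near the share over all genes. SLBP was at 6.01 CPM in A549 and 7.04 in HEK293T. ZNF473, LSM11 and CSTF2, among the lower ones, reached 20 reads only in HEK293T. Of 14 decay and translation genes 4 were higher and 2 lower. TUT4, TUT7 and XRN1 reached 20 reads only in A549, so they had to be higher there, and nothing is read from this count. The state of the cell cycle in the cultures is not given, and its part in the histone values was not tested.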

How the data were processed

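The authors deposited, for every RefSeq transcript, a read count together with FPM (a signal scaled to a library total) and FPKM in the same tables; the count is used here, and the library total was recovered as count over FPM. Gene body coverage was deposited by the authors as 1 signal value per percentile. The submitters' processing notes name FastQC 0.11.8, cutadapt 2.10, Trimmomatic 0.39, HISAT2 2.2.1 and SAMtools and the build hg19 (GRCh37), with no role or order; strand use, the treatment of reads with several matches and the annotation release are not given in the sources used here. Near-identical histone genes can therefore share or lose reads. Of 61177 transcript entries 60133 (98.3%) matched a RefSeq symbol; coordinates are those of the files, 1-based. Reads per library were 7491993 to 25578543 in total.

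Python 3.11.15 with pandas 2.3.3 and scipy 1.17.1, and R 4.3.3 with edgeR 4.0.16 (TMM, filterByExpr, quasi-likelihood test, Benjamini-Hochberg at 0.05) and DESeq2 1.42.0, were used; the edgeR step was first tested on simulated counts. Binomial intervals for shares are Wilson and for ratios of 2 libraries Clopper-Pearson, at 95%. The A549 comparison used log2(CPM + 1), a minimum of 20 reads in either library and a fold of 2. Sequences are GENCODE release 29 transcripts on GRCh38.

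Libraries were grouped by their titles. The members, lists and tests were chosen with earlier results of these data known. Members were named if they passed the test, were among the 4 of their class with the highest mean HEK293T CPM (with a read there), led a library, or were among the highest or lowest A549 ratios; of each list the 2 with highest mean CPM. H1-1, H1-5, H1-6, H2AC18, H2BC8, H2BC15, H2BC17, H2BC20P, H3C15, H4C9, H4C12, H4C15, SLBP, PCNA, H1-10 and E2F1 were named for context, some after their values were seen. Of the T12 libraries, the second HEK293T replicate and the first of A549 gave no gene counts used here; their poly(T) lengths were left out. The values of 1 listed gene are not reported here.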

Additional observations from a re-analysis of the deposited data

Results flagged for a closer look

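In each set of 6 HEK293T libraries, the highest or lowest value was compared with its nearest neighbour, as a share of the whole range; 24 values were examined, 14 had a library far from the others by Dixon's 95% limit, and chance gives about 1 in 20, or 1.2. T18VNN was far above the rest for the H1 class (82.3 CPM), H1-3 (61.2), H1-4 (20.9), H2BC21 (12.2), H2BC5 (16.96), H4C5 (23.4) and H1-2 (0.278 CPM, which is 1 read). T18VN was far above for H2AC12 and for H2AC19 (1.79 CPM each, 8 reads). T18V was far above for H2AC25 (2.13 CPM, 6 reads). T18 was far above for H4C2 (0.577 CPM, 3 reads), for H3C14 and with it the whole H3 class (0.192 CPM, 1 read), and for the share of gene reads taken by its top gene (7.20%). Values resting on 1 to 8 reads in a library, with 0 in most others, reach this limit easily.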

How the results depend on the processing

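No paired analysis was possible because each primer has 1 library with gene counts, and the HEK293T and A549 T12 libraries with counts carry different replicate numbers. For anchored against unanchored primers, edgeR called 0 of 3 members tested and 147 of 10887 genes. DESeq2 called 1 of 3 (603 of 7789 genes) and the library total as library size 1 of 3 (2257 of 11244 genes), in both cases H1-3. No filter on low counts called 3 of 24, H1-3, H1-4 and H4C5 (556 of 16405 genes). The 84 reads of H4C5 all came from T18VNN. Leaving out each library called 0 of 3 to 6 members each time, and 45 to 111 of 11337 to 11639 genes (T18 85, T30 54, T18V 63, T18VNN 45). The library total moved the median log2 fold change of all genes to 1.08, and leaving out TMM moved it to 0.17. With a library left out, the log2 fold change of H2BC12 lay between -0.26 (without T18VNN, sign turned) and 0.64, and that of H4C3 between -0.95 and 1.35 (without T18, sign turned); with the library total H4C3 turned to 0.55, a setting whose median over all genes is higher than that. The causes were not tested. The histone share difference lay between -0.0161 and 0.0327 percentage points when a library was left out. Without H4C3 and H2BC12 it was 0.00685, and without T18VNN as well 0.00245; both were chosen after seeing the data. In A549, 2 or 3 members were higher and 1 lower under every setting tried: the 2 were H2BC5 with H2BC21 (TMM, library total) or with H2BC12 (minimum of 50 reads). Depth limits most members: 0 reads allow up to 0.577 to 2.00 CPM.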
